A study of Homo sapiens with 6 samples.

Results

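PERP and 9 genes of the desmosome were followed in HCT116 cells, a human colorectal cancer line, after knockdown of POU2F1. The 10 genes were the rows whose symbol was PERP, DSP, DSG2, DSC2, DSC3, PKP1, PKP2, PKP3, PKP4 or JUP, out of 20474 annotated genes, and each symbol matched 1 row. They were chosen by the levels of PERP in this same comparison, in which PERP was among the genes that rose, and were completed with the desmosome genes as a family. The differences between siRNAs given below therefore describe how these genes behaved and are not an independent test of them. Cells of the treated group had received an siRNA against POU2F1 (siPOU2F1, 3 libraries, genotype labelled POU2F1 knockdown) and those of the control group a control siRNA (sicontrol, 3 libraries, genotype labelled WT). RNA was taken 48 h after transfection in both, and polyA RNA was sequenced. The labels do not state that the libraries of a group were separate cultures, so SDs and p-values cover only library-to-library spread, part or all of which may be technical.

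Desmosomes are spot-like junctions that tie the intermediate filaments of neighbouring epithelial cells together. Desmogleins and desmocollins are cadherins that span the gap between cells. Plakoglobin (JUP) and the plakophilins bind their tails inside the cell, and desmoplakin (DSP) links this plaque to keratin filaments. PERP is a tetraspan membrane protein of the PMP22 family, first described as an effector of apoptosis. In mouse stratified epithelia it is a target of p63 and is needed for normal desmosomes. In simple epithelia such as the gut, DSG2, DSC2, PKP2 and PKP3 are the usual isoforms, whereas DSG1, DSG3, DSC1 and PKP1 belong mainly to stratified epithelia. POU2F1 encodes OCT1, a transcription factor that binds the octamer sequence.

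The knockdown was present in every treated library. POU2F1 measured 1.87, 1.69 and 1.73 FPKM in siPOU2F1 replicates 1 to 3 and 4.16, 3.60 and 4.26 FPKM in sicontrol replicates 1 to 3. FPKM count fragments per length of transcript and per size of the library, so levels of different genes can be set side by side per length. The groups did not overlap (p = 0.1 by a two-sided exact permutation test, which cannot go lower with groups of 3), and the fit across all genes called POU2F1 lower (log2 difference -0.99, SE 0.14; limma, adjusted p = 0.0333). That call was lost without any 1 library other than siPOU2F1 replicate 3, with log2 differences from -1.06 to -0.95 over all these fits. Of 9 markers of colorectal epithelium, 8 averaged at least 1 FPKM, at very different levels. EPCAM, the epithelial adhesion molecule, had 215 ± 7.38 and 213 ± 7.45 FPKM in siPOU2F1 and sicontrol cells (SD, n = 3 each). VIL1 had only 4.22 ± 1.91 and 1.96 ± 0.982 FPKM, and CDX2 5.10 ± 2.22 and 4.335 ± 0.515 FPKM, in the same order. CEACAM5 was below 1 FPKM. One library stood apart. Across the 11831 genes that averaged 1 FPKM or more, the r of siPOU2F1 replicate 3 was 0.946 against siPOU2F1 replicate 1 and 0.948 against replicate 2. Against sicontrol replicates 1 to 3 it was 0.969, 0.977 and 0.966. The r between siPOU2F1 replicates 1 and 2 was 0.989, the highest of all pairs. Both were closer to sicontrol replicates 1 and 3 than to siPOU2F1 replicate 3. These correlations are across genes, which are not independent replicates. Values are therefore given by library, and calls also without siPOU2F1 replicate 3. That library was picked after these correlations were seen, and the siPOU2F1 libraries left are the closest pair. Calls without it are therefore a description only.

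The promoters of the members that were higher in all siPOU2F1 libraries (PERP, DSP and JUP) are shown because POU2F1 is a DNA-binding factor and its octamer could be looked for there. They run from 250 bases before to 50 bases after the RefSeq start on GRCh38.p14, on the strand of the gene. The capitals mark matches to the GC box (GGGCGG), the CCAAT box and the AP-1 sequence (TGANTCA, where N is any base). Both strands were searched, and neighbouring GC boxes may overlap. The PERP window is chr6:138107370-138107669 on the minus strand, the DSP window chr6:7541421-7541720 on the plus strand, and the JUP window chr17:41786662-41786961 on the minus strand. RefSeq lists another JUP promoter, chr17:41785927-41786226, which held none of the motifs searched and is not shown.

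PERP: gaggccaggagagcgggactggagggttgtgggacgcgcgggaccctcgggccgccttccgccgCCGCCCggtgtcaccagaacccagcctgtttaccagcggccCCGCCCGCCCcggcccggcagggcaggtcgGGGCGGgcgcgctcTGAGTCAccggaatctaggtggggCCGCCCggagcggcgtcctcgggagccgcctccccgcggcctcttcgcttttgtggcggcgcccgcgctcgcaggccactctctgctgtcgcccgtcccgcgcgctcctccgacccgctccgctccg

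DSP: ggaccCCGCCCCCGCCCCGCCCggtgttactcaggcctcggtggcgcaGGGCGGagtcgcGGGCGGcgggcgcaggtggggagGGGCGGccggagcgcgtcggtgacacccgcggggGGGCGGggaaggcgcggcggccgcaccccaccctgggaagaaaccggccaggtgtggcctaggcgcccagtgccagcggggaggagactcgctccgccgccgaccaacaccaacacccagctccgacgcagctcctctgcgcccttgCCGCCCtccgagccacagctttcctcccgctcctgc

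JUP: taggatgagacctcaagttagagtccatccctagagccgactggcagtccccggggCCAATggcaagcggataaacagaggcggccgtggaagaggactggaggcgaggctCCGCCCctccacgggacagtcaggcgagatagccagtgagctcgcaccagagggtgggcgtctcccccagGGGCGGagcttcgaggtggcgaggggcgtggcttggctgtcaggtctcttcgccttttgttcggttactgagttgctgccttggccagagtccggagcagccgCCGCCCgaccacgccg

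The PERP window held 5 GC boxes and an AP-1 sequence whose first base lay 101 bases before the RefSeq start. The DSP window held 8 GC boxes, and the JUP window shown held 3 GC boxes and a CCAAT box. The octamer, ATGCAAAT on either strand, was in 0 of the 11 promoters listed by RefSeq for the 8 members it matched, and in 1.77% of 35116 promoters of the same length. Among those 11 promoters 9 held a GC box, against 44.95% of all promoters. A CCAAT box was in 3 of the 11, against 34.6% of all. The AP-1 sequence was in PERP alone among the 8 matched members and in 7.71% of all promoters. TATAAA was in 0 of the 11 and in 11.5% of all. PKP2 and PKP3 had no promoter in the set used and were not searched. These are matches of letters in a short window and say nothing about where a factor binds.

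PERP was the member with the largest difference. PERP (ENSG00000112378; chromosome 6, 138088505 to 138107511, minus strand, GRCh38) measured 108.9, 117 and 131 FPKM in siPOU2F1 replicates 1 to 3 and 54.9, 59.6 and 57.0 FPKM in sicontrol replicates 1 to 3. The lowest siPOU2F1 library lay well above the highest sicontrol library. Its mean was 119 ± 11.02 FPKM in siPOU2F1 cells and 57.2 ± 2.35 FPKM in sicontrol cells (SD, n = 3 each), a ratio of 2.08. On the scale of log2(FPKM + 0.5), which slightly understates a change, PERP was higher by 1.05 (SE 0.10; limma, p adjusted over all 11831 tested genes 0.0150). By size PERP was 16th of the 47 genes called higher. Genes count as called where that adjusted p is under 0.05; 0.397% of tested genes were called higher and 0.845% lower. PERP was the only one of the 9 tested members that was called, and since it was chosen for this difference, nothing is read from that count. In bulk RNA, more cells with a transcript and more transcript per cell cannot be told apart. Without siPOU2F1 replicate 3 the difference was 0.98 (adjusted p = 0.00463), and without any other single library it lay between 1.02 and 1.11 with adjusted p from 0.0751 to 0.114 (limma), so the call needed all of those 5 libraries.

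**Figure D1:**
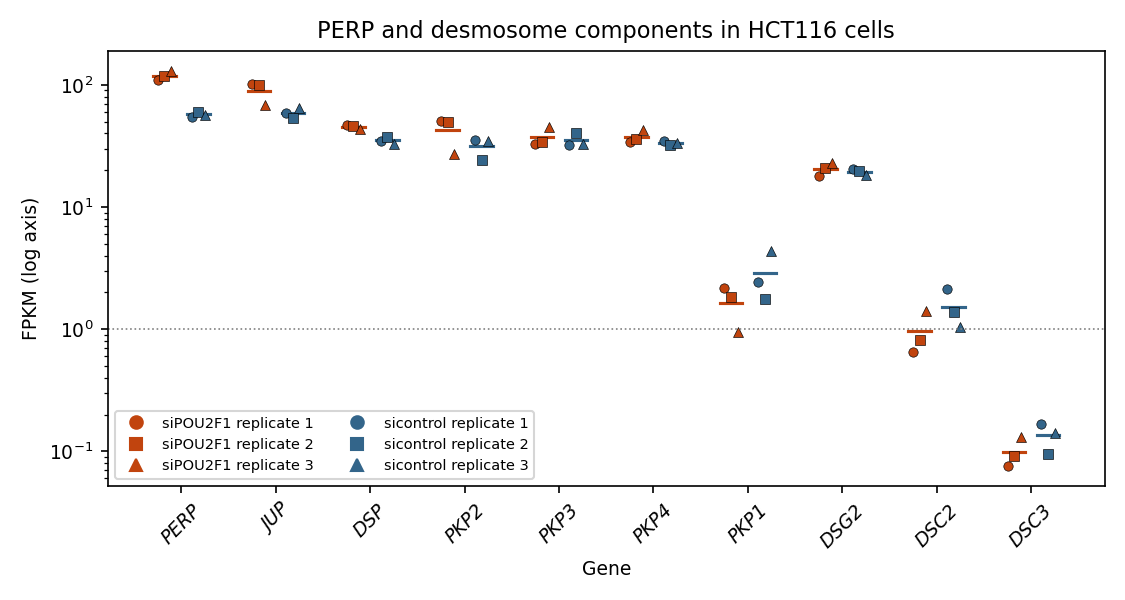
FPKM of each member on a log axis, with siPOU2F1 libraries in red left of sicontrol libraries in blue; points are libraries, short bars are group means and the dotted line is 1 FPKM. PERP has 108.9 to 131 FPKM in siPOU2F1 and 54.9 to 59.6 FPKM in sicontrol, while DSC2, DSC3 and PKP1 lie far below the other members.

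Of the plaque proteins, plakoglobin and desmoplakin were higher in every siPOU2F1 library, by less than PERP. JUP, the armadillo protein shared with adherens junctions (chromosome 17, 41754604 to 41786931, minus strand), measured 100.6, 99.1 and 67.9 FPKM in siPOU2F1 replicates 1 to 3 and 58.6, 53.6 and 64.0 FPKM in sicontrol replicates 1 to 3. Replicates 1 and 2 of siPOU2F1 stood high, whereas replicate 3 was just above the highest sicontrol library. The means were 89.2 ± 18.5 and 58.7 ± 5.24 FPKM in siPOU2F1 and sicontrol cells (SD, n = 3 each), with a log2 difference of 0.58 and an SE of 0.17 that was not called (limma, adjusted p = 0.157).

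DSP, which anchors the plaque to keratins (chromosome 6, 7541575 to 7586717, plus strand), measured 46.9, 45.9 and 43.8 FPKM in siPOU2F1 replicates 1 to 3 and 34.8, 37.4 and 33.0 FPKM in sicontrol replicates 1 to 3. The groups did not overlap and the 3 siPOU2F1 libraries lay close together. The log2 difference was 0.37 with a 95% interval from 0.14 to 0.60, and it was not called (limma, adjusted p = 0.123). In all, 3 of the 10 members had siPOU2F1 libraries wholly above the sicontrol libraries, as did 11.3% of all tested genes, and 0 had them wholly below, as did 12.0% of all tested genes. Without siPOU2F1 replicate 3, the called members were PERP, JUP (0.76; limma, adjusted p = 0.00830), DSP (0.40, 0.0292) and PKP2 (0.70, 0.0292). That fit called 2954 genes, against 147 with all libraries, with 9.29% of all tested genes higher and 15.7% lower. The library was picked for its likeness to sicontrol libraries, so these calls are no separate test of JUP, DSP or PKP2.

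Among the plakophilins, which cluster the cadherins and recruit desmoplakin, no member separated the groups. PKP2 measured 50.9, 50.04 and 27.0 FPKM in siPOU2F1 replicates 1 to 3 and 35.1, 24.5 and 34.4 FPKM in sicontrol replicates 1 to 3. It was high in siPOU2F1 replicates 1 and 2, but siPOU2F1 replicate 3 fell within the sicontrol range. The log2 difference was 0.40 with a 95% interval from -0.24 to 1.04.

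PKP3 had its high values in other libraries, with 32.7, 33.8 and 44.99 FPKM in siPOU2F1 replicates 1 to 3 and 32.4, 40.0 and 33.0 FPKM in sicontrol replicates 1 to 3. It was highest in siPOU2F1 replicate 3 and next highest in sicontrol replicate 2. Its log2 difference was 0.07 (95% interval -0.30 to 0.44), and -0.07 without siPOU2F1 replicate 3.

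PKP4, a relative that is found in desmosomes and in adherens junctions, measured 33.8, 36.3 and 42.7 FPKM in siPOU2F1 replicates 1 to 3 and 34.7, 31.9 and 33.5 FPKM in sicontrol replicates 1 to 3, with overlapping groups and a log2 difference of 0.16. PKP1, the plakophilin of stratified epithelia, was low at 2.17, 1.83 and 0.942 FPKM in siPOU2F1 replicates 1 to 3 and 2.42, 1.78 and 4.38 FPKM in sicontrol replicates 1 to 3. Its log2 difference of -0.62 had a 95% interval from -1.44 to 0.20, the widest of the members.

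The make-up of the plakophilins differed between libraries more than their sum. The 4 genes together held 120, 122 and 116 FPKM in siPOU2F1 replicates 1 to 3 and 105, 98.2 and 105 FPKM in sicontrol replicates 1 to 3. These sums did not overlap, but no sums of other genes were made for comparison, so nothing is read from that. PKP2 made up 42.5%, 41.0% and 23.4% of that sum in siPOU2F1 replicates 1 to 3 and 33.5%, 24.9% and 32.7% in sicontrol replicates 1 to 3. PKP3 made up 27.4%, 27.7% and 38.9% in siPOU2F1 replicates 1 to 3 and 31.0%, 40.8% and 31.3% in sicontrol replicates 1 to 3. The libraries with the least PKP2 and the most PKP3 were thus siPOU2F1 replicate 3 and sicontrol replicate 2, and over all tested genes siPOU2F1 replicate 3 also correlated best with sicontrol replicate 2.

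The cadherins were uneven in level and none was called. DSG2, the desmoglein of simple epithelia, measured 17.998, 20.7 and 22.9 FPKM in siPOU2F1 replicates 1 to 3 and 20.3, 19.5 and 18.1 FPKM in sicontrol replicates 1 to 3. The groups overlapped, and the log2 difference of 0.08 had a 95% interval from -0.21 to 0.37. DSC2, the desmocollin usually paired with it, had 0.650, 0.814 and 1.41 FPKM in siPOU2F1 replicates 1 to 3 and 2.14, 1.39 and 1.05 FPKM in sicontrol replicates 1 to 3. It was lowest in siPOU2F1 replicates 1 and 2, the groups overlapped, and the log2 difference was -0.47 (95% interval -1.15 to 0.20). DSC3 averaged 0.0995 ± 0.0295 and 0.135 ± 0.0366 FPKM in siPOU2F1 and sicontrol cells (SD, n = 3 each), under the 1 FPKM needed to enter the test, and it was the 1 member left out of it.

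Within each library DSG2 exceeded DSC2 by a wide margin in FPKM. The ratio of DSG2 to DSC2 was 27.7, 25.5 and 16.2 in siPOU2F1 replicates 1 to 3 and 9.50, 14.1 and 17.3 in sicontrol replicates 1 to 3, and the groups overlapped. DSG2, DSC2 and DSC3 lie near each other on chromosome 18. Of these neighbours, DSG2 and DSC2 had log2 differences of opposite sign, neither of them called, and DSC3 was too low to test.

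**Figure D2:**
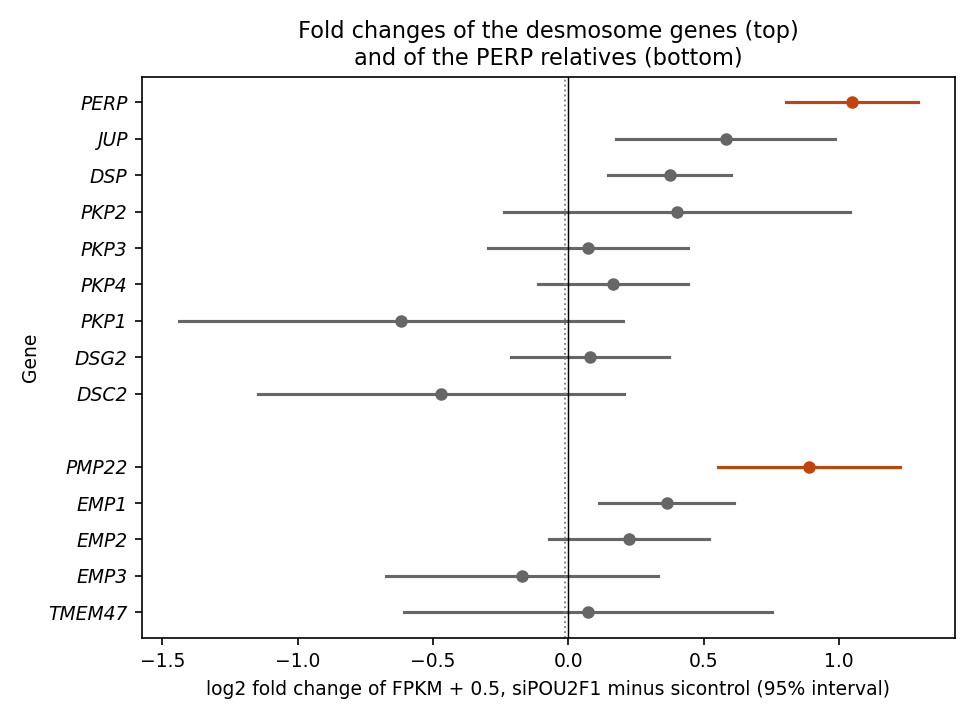
log2 fold changes of FPKM + 0.5, siPOU2F1 minus sicontrol, with 95% intervals from limma, for the 9 tested members above and 5 relatives of PERP below; red marks called genes and the dotted line is the median of all tested genes. PERP and PMP22 are the called genes, at 1.05 and 0.89, and the intervals of JUP, DSP and EMP1 lie above 0 although these genes were not called.

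Set in order of level, the members formed the same broad tiers in both groups. In siPOU2F1 cells PERP was highest, followed by JUP at 89.2 FPKM, and neither overlapped its neighbour in that order. DSP, PKP2, PKP4 and PKP3 followed, from 45.5 down to 37.2 FPKM, each overlapping the next. DSG2 stood alone at 20.5 FPKM, and PKP1 and DSC2, at 1.65 and 0.960 FPKM, overlapped each other. In sicontrol cells JUP (58.7 FPKM) and PERP (57.2 FPKM) overlapped at the top, and PKP3, DSP, PKP4 and PKP2, from 35.1 down to 31.3 FPKM, each overlapped the next. PERP therefore held a larger share of the members' summed FPKM in siPOU2F1 cells. That share was 27.6%, 28.9% and 34.2% in siPOU2F1 replicates 1 to 3 and 19.9%, 22.1% and 20.5% in sicontrol replicates 1 to 3. The other 9 members together held 286, 289 and 252 FPKM in siPOU2F1 replicates 1 to 3 and 221, 210.1 and 222 FPKM in sicontrol replicates 1 to 3.

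The members that were higher did not follow 1 profile across libraries. Relative to the sicontrol mean, PERP was higher by 0.92, 1.03 and 1.19 on the log2(FPKM + 0.5) scale in siPOU2F1 replicates 1 to 3, so it was highest in the library that stood apart. JUP was higher by 0.78, 0.75 and 0.21 in the same libraries. PKP2 had 0.71, 0.69 and -0.19, and DSP was nearly even at 0.42, 0.38 and 0.32. Taking each gene's profile as its log2 values centred on its own mean over the 6 libraries, JUP and PKP2 were each other's nearest member, with a root mean square difference of 0.18. The same held for DSG2 and PKP4 at 0.07. The member nearest to PERP was DSP at 0.36, which was 462nd of 11830 genes in likeness to PERP.

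**Figure D3:**
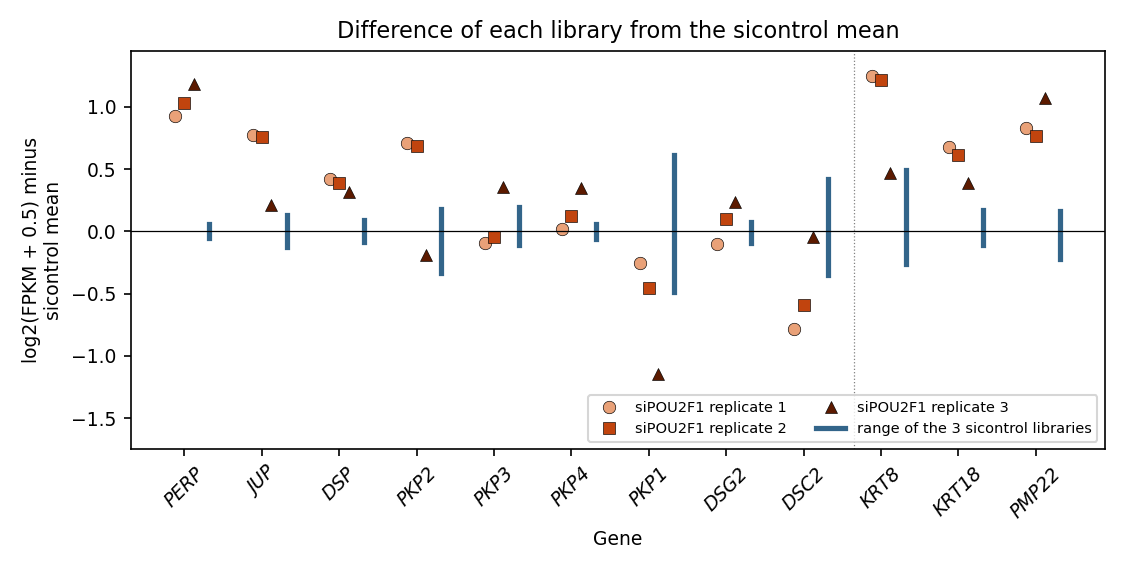
log2(FPKM + 0.5) of each siPOU2F1 library minus the sicontrol mean, for the 9 tested members and, right of the dotted line, KRT8, KRT18 and PMP22; blue bars are the range of the 3 sicontrol libraries. PERP and PMP22 are highest in siPOU2F1 replicate 3, whereas JUP, PKP2 and both keratins are highest in replicates 1 and 2.

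The 5 tested genes most like PERP by this measure were not junction genes. They were ZW10, a kinetochore and membrane trafficking protein, ADAM19, a membrane metalloprotease, STX12, an endosomal syntaxin, ZDHHC18, a palmitoyltransferase, and RGS19, a regulator of G protein signalling. Their root mean square differences from PERP were 0.08, 0.08, 0.09, 0.13 and 0.13 over the 6 libraries. ADAM19 measured 55.5, 56.4 and 63.9 FPKM in siPOU2F1 replicates 1 to 3 and 30.3, 30.4 and 32.05 FPKM in sicontrol replicates 1 to 3, and had a log2 difference of 0.91. All 5 were higher in siPOU2F1 cells, which their choice by likeness to PERP over the same libraries fixes, so no test of them is given.

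PERP's own protein family held a further called gene. PMP22, the peripheral myelin protein that gives the family its name, measured 48.1, 45.8 and 56.9 FPKM in siPOU2F1 replicates 1 to 3 and 22.9, 28.1 and 30.0 FPKM in sicontrol replicates 1 to 3. As with PERP, the siPOU2F1 libraries lay wholly above the sicontrol libraries and replicate 3 was the highest. The means were 50.2 ± 5.83 and 27.0 ± 3.70 FPKM in siPOU2F1 and sicontrol cells (SD, n = 3 each), and PMP22 rose by 0.89 on the log2 scale with an SE of 0.14 (limma, adjusted p = 0.0412). Without siPOU2F1 replicate 3 its adjusted p was 0.0125, and without any other single library it lay between 0.0968 and 0.198, and with every gene above 0 FPKM in the fit it was 0.0682. In likeness to PERP it was 7th of 11830 genes, a rank looked up after its values were seen.

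EMP1, an epithelial membrane protein of the same family, had 92.9, 98.8 and 106.8 FPKM in siPOU2F1 replicates 1 to 3 and 79.2, 82.4 and 70.4 FPKM in sicontrol replicates 1 to 3, again without overlap. Its log2 difference was 0.36 and was not called (limma, adjusted p = 0.154). EMP2 had 0.22, TMEM47 0.07 and EMP3 -0.17, none of them called. The 5 genes had a median log2 difference of 0.22, against -0.01 for all tested genes and 0.16 for the 9 tested members.

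The other genes of the desmosome were low or even between groups. DSG1, DSG3, DSG4 and CDSN had means under 1 FPKM and DSC1 was listed at 0 in every library. PPL and EVPL, plakins of the same family as desmoplakin, measured 31.1 ± 4.43 and 4.11 ± 0.192 FPKM in siPOU2F1 cells, against 33.3 ± 2.52 and 4.31 ± 0.594 FPKM in sicontrol cells (SD, n = 3 each). Their log2 differences were -0.11 and -0.06, and neither was called nor had an unadjusted p under 0.05 (limma). Of 6 tested genes of desmosome assembly and turnover limma called none, with 1 higher and 1 lower at an unadjusted p under 0.05, and their median was -0.02. Over all tested genes 2143 of 11831 had an unadjusted p under 0.05. FLOT2, a membrane scaffold, had 0.31, ADAM17, a sheddase that cleaves desmogleins, had -0.43, and ATP2A2, the calcium pump of the endoplasmic reticulum, had -0.37 (limma, adjusted p from 0.190 to 0.361). ADAM17 and ATP2A2 were called lower without siPOU2F1 replicate 3, as were 15.7% of all tested genes.

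Keratins, to which desmoplakin attaches, were uneven. None of 12 tested genes of the keratin and vimentin list was called, 7 were positive and 5 negative, and the median was 0.10. At an unadjusted p under 0.05 (limma) 2 were higher and 3 lower. KRT18 measured 2185, 2096 and 1788 FPKM in siPOU2F1 replicates 1 to 3 and 1306, 1271 and 1543 FPKM in sicontrol replicates 1 to 3, without overlap (log2 difference 0.56; limma, adjusted p = 0.0870). KRT8, its partner in simple epithelia, measured 1978, 1925 and 1150 FPKM in siPOU2F1 replicates 1 to 3 and 693, 707 and 1169 FPKM in sicontrol replicates 1 to 3. Here siPOU2F1 replicate 3 and sicontrol replicate 3 were alike, and the log2 difference of 0.98 had an SE of 0.28 and was not called (adjusted p = 0.149). KRT80 was lower in every siPOU2F1 library, with 41.6, 42.3 and 44.9 FPKM in siPOU2F1 replicates 1 to 3 and 74.4, 66.9 and 59.2 FPKM in sicontrol replicates 1 to 3 (-0.63; limma, adjusted p = 0.0578), and was called lower with the filter at a mean of 5 FPKM. Keratin genes have close relatives and processed copies, so reads may be shared between them. Without siPOU2F1 replicate 3, 3 genes of the list were called higher, KRT8, KRT18 and VIM, and 3 lower, KRT7, KRT23 and KRT80. That fit called 9.29% of all tested genes higher and 15.7% lower.

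The neighbouring junctions gave no called gene with all libraries. Of 11 tested adherens junction genes 9 were positive, with a median of 0.17, and 1 was higher and 1 lower at an unadjusted p under 0.05 (limma). CTNND1, the p120 catenin that stabilises cadherins at the membrane, had 66.6, 64.4 and 46.1 FPKM in siPOU2F1 replicates 1 to 3 and 40.9, 38.9 and 44.5 FPKM in sicontrol replicates 1 to 3, a profile with siPOU2F1 replicates 1 and 2 high as in JUP (0.49; limma, adjusted p = 0.181). CTNNA1, the alpha-catenin, had -0.24 and NECTIN1, a nectin adhesion molecule, 0.33. CTNND1 and VCL, the actin linker vinculin, were called higher without siPOU2F1 replicate 3, as were 9.29% of all tested genes. CDH1, the classical epithelial cadherin, had 23.6 ± 3.69 and 21.8 ± 2.61 FPKM in siPOU2F1 and sicontrol cells (SD, n = 3 each), with overlapping groups.

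Hemidesmosomes tie keratins to the basement membrane. Of 8 tested hemidesmosome genes 7 were negative, with a median of -0.34, and 5 had siPOU2F1 libraries wholly below the sicontrol libraries, as did 12.0% of all tested genes. None was called, with 1 higher and 4 lower at an unadjusted p under 0.05 (limma). CD151, a tetraspanin, had 115, 111 and 143 FPKM in siPOU2F1 replicates 1 to 3 and 165, 172 and 156 FPKM in sicontrol replicates 1 to 3, without overlap (-0.42; limma, adjusted p = 0.1497). ITGB4, the integrin beta-4 subunit, went the other way at 0.45 (adjusted p = 0.123). Without siPOU2F1 replicate 3, LAMB3, LAMA3 and CD151 were among those called lower and ITGB4 was called higher. Of all tested genes, that fit called 15.7% lower and 9.29% higher.

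TP63, whose protein acts on PERP in mouse stratified epithelia, was at most 0.0120 FPKM in any library.

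**Figure D4:**
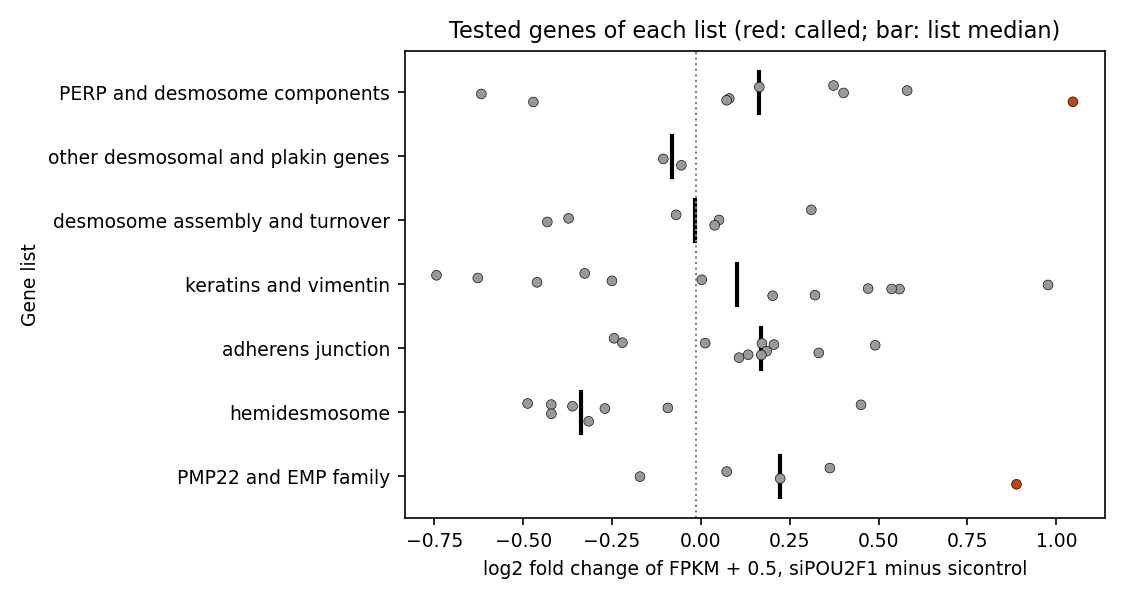
log2 fold change of each tested gene of 7 lists, siPOU2F1 minus sicontrol; points are genes, red points are called, black bars are list medians and the dotted line is the median of all tested genes. The members have a median of 0.16, the adherens junction list 0.17 and the hemidesmosome list -0.34, and the called genes are PERP and PMP22.

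Markers of other cell types were read as summed FPKM per library, and most of their defining genes were at or near 0. The sum ranged over 1.89 to 3.76 in siPOU2F1 and 2.202 to 2.82 in sicontrol libraries for 8 fibroblast markers, of which 7 had means under 1 FPKM and DCN and COL3A1 were at 0. For 6 leukocyte markers it was 6.32 to 7.80 in siPOU2F1 and 5.98 to 7.70 in sicontrol libraries, mostly CD68, with PTPRC at 0. For 4 endothelial markers it was 0.597 to 0.708 in siPOU2F1 and 0.666 to 0.954 in sicontrol libraries, and all 4 had means under 1 FPKM. Muscle and squamous lists were higher, through 1 gene each. For 6 cardiomyocyte markers it was 22.2 to 30.3 in siPOU2F1 and 14.96 to 23.5 in sicontrol libraries, mostly TNNI3, with MYH7 and ACTC1 at 0. The 9 squamous keratinocyte markers summed to 293 to 510.2 in siPOU2F1 and 209.6 to 364 in sicontrol libraries, nearly all from KRT5, and 7 of them had means under 1 FPKM. The 9 colorectal markers summed to 3859 to 5258 in siPOU2F1 and 2861 to 3747 in sicontrol libraries, mostly KRT8, KRT18 and KRT19, and did not overlap. Of the 8 tested, 7 were positive, but only 1 had siPOU2F1 libraries wholly above sicontrol, as did 11.3% of all tested genes. CLDN7 was the 1 negative marker, with siPOU2F1 libraries wholly below, as in 12.0% of all tested genes. Its log2 difference of -0.39 was not called (limma, adjusted p = 0.225). What part any of these lists has in the differences of the members was not tested.

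The 3′ UTRs of the members were also read for a pair of 7-base words, AACTGCA and AGAATGA, that had been picked in an earlier search of the fold changes of these same libraries, so their presence is a description only. With 1 GENCODE 29 transcript per gene, the one whose coding part is longest, AACTGCA was in 11.9% and AGAATGA in 14.4% of 11487 tested genes with a 3′ UTR of at least 20 bases. At least 1 of the words was in 22.7% of those genes. PERP, with a 3′ UTR of 3537 bases, held neither, and of the 10 members PKP1 alone held them, with 1 copy of each. The sites are shown because PKP1 had the most negative log2 difference of the tested members, although it was not called, and the capitals mark the word. That difference ranged from -0.86 to -0.31 over the fits leaving out a library, and a link to the words was not tested.

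PKP1 AACTGCA site: gcataaccacaAACTGCAaaaagctaggt

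PKP1 AGAATGA site: cccaccttcaaAGAATGAagagccccatg

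The first of these sites begins at base 371 and the second at base 2223 of the PKP1 3′ UTR on chromosome 1. POU2F1 itself held 2 copies of each word, in a 3′ UTR of 11535 bases. The 3′ UTR used for PKP4 was only 102 bases long, so a match in a longer form would not be seen.

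No annotated gene shared exonic bases with PERP, DSP, JUP, PKP1, PKP2, PKP3, DSC2 or DSC3 in the basic set of GENCODE 29. Transcripts outside that set were not searched. The antisense genes DSG2-AS1 and PKP4-AS1 covered 2.76% of the exonic bases of DSG2 and 1.99% of those of PKP4, and neither was among the rows used here.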

How the data were processed

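PolyA RNA of HCT116 cells was sequenced in 6 libraries, 3 per siRNA. The authors deposited FPKM values, 1 table per library with 22782 rows, of which the 20474 annotated genes were used. Per the submitters' processing notes, HISAT2 2.0.4, Bowtie2 2.2.5, StringTie 2.1.2 and hg38 were used; their roles, the gene annotation, filters and whether strand was used are not given in these sources. FPKM tables hold no counts, so absolute depth is unknown and no counting interval can be given; the FPKM sum per library was 394689 to 408637.

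Genes averaging at least 1 FPKM over all libraries (11831) were compared as log2(FPKM + 0.5), without further scaling, with limma 3.58.1 (trend, group only) in R 4.3.3 and Benjamini-Hochberg adjustment over all of them. Python 3.11.15, numpy 2.4.6, pandas 2.3.3 and matplotlib 3.10.9 were used. Sequences came from RefSeq (GRCh38.p14) and positions and 3′ UTRs from GENCODE 29 (GRCh38, which is hg38), counted from 1. Only the basic set of GENCODE transcripts was used.

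The members and gene lists were chosen with earlier results of these data known. Named genes were all members, POU2F1, the called genes of each list or else its 3 tested genes with the lowest p, the 5 genes most like PERP and genes overlapping a member. Other genes were named after their values were seen, and some items are not reported here. Alternatives were other pseudocounts, filters, scalings, library weights, a replicate block and leaving out each library.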

Additional observations from a re-analysis of the deposited data

How the results depend on the processing

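With all libraries 147 genes were called (limma), and the number ranged from 0 to 2954 when 1 library was left out: 2954 without siPOU2F1 replicate 3, 5 and 9 without sicontrol replicates 2 and 3, and 0 without siPOU2F1 replicate 1 or 2 or sicontrol replicate 1, where 1255, 1176 and 1333 genes had an unadjusted p under 0.05. It was 72 with every gene above 0 FPKM, and 5963 with library weights. The weighted fit called 2651 of the 11831 tested genes higher and 3312 lower, among them DSP, JUP and PKP2 higher and DSC2 lower. It gave siPOU2F1 replicate 3 the lowest weight, 0.145. Its calls are therefore no separate test from the fit without that library. PERP kept its direction in every alternative. Its log2 difference lay between 0.98 and 1.11 over the fits leaving out a library, and it was called in every alternative except those without 1 of the 5 libraries other than siPOU2F1 replicate 3 and the replicate block (1.05, adjusted p = 0.235). POU2F1 had -0.99 but lost its call with every gene above 0 FPKM (adjusted p = 0.0650) and in the replicate block (-0.99, adjusted p = 0.297), and ranged from -1.06 to -0.95 without single libraries. Only PKP3 changed sign, to -0.071 without siPOU2F1 replicate 3, and it reached 0.17 without sicontrol replicate 2.

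The replicate block called 0 genes (limma; 1208 with an unadjusted p under 0.05). The labels do not say that replicate numbers mark shared cultures. Deviations of same-numbered libraries from their group means correlated at 0.13, -0.54 and -0.51 for replicates 1 to 3. Deviations within a group of 3 are tied to each other and siPOU2F1 replicate 3 stood apart. These values therefore cannot show whether the numbers pair the libraries. POU2F1, DSC2 and PKP1 have no value with the filter at 5 FPKM, where their means are too low.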

Other observations

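KRT5, a keratin of basal and squamous epithelia, was abundant in these colorectal cells, at 499, 463 and 279 FPKM in siPOU2F1 replicates 1 to 3 and 306, 195 and 352 FPKM in sicontrol replicates 1 to 3. KRT14, the keratin that pairs with it in stratified epithelia, averaged 0.0578 ± 0.0517 and 0.0969 ± 0.0586 FPKM in siPOU2F1 and sicontrol cells (SD, n = 3 each), and DSG3 and TP63 were near 0. KRT15, another keratin of the list, was not low, at 58.4 ± 14.9 and 58.3 ± 14.0 FPKM in the same order. The order of the libraries in KRT5 resembled that in KRT8 and KRT19 among the siPOU2F1 libraries, and whether reads of related keratins reached the KRT5 row was not tested.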
